A study of Homo sapiens with 12 samples.

Results

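The genes described here encode the proteins of the cytosolic ribosome. They were chosen as the protein-coding genes with a symbol of the RPL or RPS series, together with RPLP0, RPLP1, RPLP2, RPSA, FAU and RPL36AL, and without RPS27A and the genes of the Y chromosome. There were 82 of them among 67049 gene IDs, 50 for the large and 32 for the small subunit, on 21 chromosomes.

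RNA was sequenced from nuclei and from cytoplasm of HEK293T cells, a line from human embryonic kidney, 48 h after a plasmid was introduced with Lipofectamine. The plasmid, pIRES2-SF3B1, carried SF3B1 either as wild type (WT) or as K700E, a recurrent substitution in blood cancers. SF3B1 is the splicing factor that helps to choose the branch point, and the title of the study names mRNA export from the nucleus and the binding of SF3B1 to THOC5, a part of the THO export complex. The 4 groups were WT nucleus, WT cytoplasm, K700E nucleus and K700E cytoplasm, with 3 libraries each. All groups share the line, the vector and the transfection, the cells keep their own SF3B1, and no untransfected cells were analysed here. Nothing in the labels tells whether replicate libraries stem from separate transfections. The p-values therefore weigh differences against the variation among the libraries, and that variation could be technical only.

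Ribosomal proteins assemble with ribosomal RNA in the nucleolus, and the finished subunits leave for the cytoplasm. Their mRNAs are short, stable and among the most abundant of growing cells. Most begin with a terminal oligopyrimidine (TOP) tract, a cytosine followed by a run of cytosines and thymines, through which LARP1 and mTOR signalling control their translation together. Many of the genes have processed pseudogenes, copies of the mRNA inserted elsewhere in the genome, and several host small nucleolar RNAs in their introns.

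Listed start sites show what most of these genes have in common and which of them lack it at the listed position. RefSeq start sites on GRCh38.p14 were found for 65 of the 82 genes. Of these, 46 had a C at the listed start followed by 4 bases that are each C or T. Over all 78 listed starts of these genes the share was 59.0%, against 4.07% of the 35116 starts of all genes. The 3 reference genes of the family are shown with 30 bases before the start and 15 from it, with the pyrimidine run from the start in capitals. They lie at chr5:82278340-82278384, minus strand (RPS23), chr3:40457309-40457353, plus strand (RPL14) and chr19:5690265-5690309, plus strand (RPL36).
RPS23: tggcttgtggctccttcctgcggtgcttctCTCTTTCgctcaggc
RPL14: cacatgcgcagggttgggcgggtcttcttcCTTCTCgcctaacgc
RPL36: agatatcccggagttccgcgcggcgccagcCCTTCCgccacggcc
The next 6 are among the genes whose counts stood apart from the family in the results. They lie at chrX:101390981-101391025, plus strand (RPL36A), chr6:34426055-34426099, minus strand (RPS10), chr17:8383179-8383223, minus strand (RPL26), chr19:54200828-54200872, plus strand (RPS9), chr6:33272045-33272089, plus strand (RPS18) and chr9:133348188-133348232, plus strand (RPL7A), and these 6 have a TOP start as well.
RPL36A: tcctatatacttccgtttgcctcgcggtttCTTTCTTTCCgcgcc
RPS10: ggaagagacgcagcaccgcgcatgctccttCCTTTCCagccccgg
RPL26: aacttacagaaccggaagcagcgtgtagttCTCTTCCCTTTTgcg
RPS9: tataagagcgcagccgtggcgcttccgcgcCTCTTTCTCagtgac
RPS18: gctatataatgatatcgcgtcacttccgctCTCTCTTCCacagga
RPL7A: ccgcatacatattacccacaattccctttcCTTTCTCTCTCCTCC
The last 4 have no such start at the listed position, and RPL17 among them also stood apart in its counts. They lie at chr18:49492451-49492495, minus strand (RPL17), chr14:49620612-49620656, minus strand (RPL36AL), chr6:35468371-35468415, plus strand (RPL10A) and chr15:63157463-63157507, minus strand (RPS27L).
RPL17: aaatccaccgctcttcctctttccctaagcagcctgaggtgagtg
RPL36AL: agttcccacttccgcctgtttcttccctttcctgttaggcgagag
RPL10A: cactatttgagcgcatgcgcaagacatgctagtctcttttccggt
RPS27L: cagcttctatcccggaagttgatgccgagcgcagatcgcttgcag
Further motifs searched on both strands from 250 bases before to 50 after the start were CCGGAAG, present in 33.3% of the starts of these genes and 10.3% of all starts, and AAGATGGC, present in 8.97% and 2.89%. A match of letters is a description and not a site of binding.

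Libraries held 9086743 to 18116929 counts. Levels are given in CPM, counts scaled to a common library total with the TMM method, so a level is a share of the RNA counted in that fraction. Fewer cells and less RNA per cell cannot be told apart in such bulk libraries, and neither can the amount of RNA in a nucleus and in a cytoplasm. The fractions were distinct. MALAT1 and NEAT1, long RNAs kept in the nucleus, summed to 2265 to 9271 CPM in nuclear and 73.7 to 130.0 CPM in cytoplasmic libraries. The 6 genes checked for HEK293T, among them VIM and KRT18, summed to 263 CPM or more in every library, while 4 blood genes summed to at most 8.64 CPM. Markers of other cells were higher in nuclear libraries, with 3 fibroblast genes summing to 26.0 to 112 CPM there and 14.2 to 29.1 CPM in cytoplasm, and the hepatocyte gene ALB at 8.85 to 20.3 and 0.89 to 2.55 CPM. The 13 mitochondrial mRNAs summed to 907 to 1245 CPM in nuclear and 4473 to 18783 CPM in cytoplasmic libraries. The part of these in the family's values was not tested. SF3B1 stood at 1577 ± 784 CPM (SD, n = 3) in WT and 1600 ± 500 CPM in K700E nuclei, and at 9430 ± 1061 and 7924 ± 882 CPM in the cytoplasm, with plasmid and endogenous transcripts not separated.

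Ribosomal protein mRNAs took a several times larger share of the cytoplasmic than of the nuclear counts with either construct. With WT they summed to 1.76%, 2.29% and 1.41% of all counts in the nuclear libraries and to 7.02%, 7.81% and 8.36% in the cytoplasmic ones. With K700E they summed to 1.73%, 1.69% and 1.19% in nuclei and to 8.87%, 7.49% and 8.68% in cytoplasm. No nuclear library came near a cytoplasmic one, and the ranges of WT and K700E overlapped in the cytoplasm and in the nucleus. Group means were 1.82 ± 0.440% (SD, n = 3) and 7.73 ± 0.674% for WT nucleus and cytoplasm, and 1.54 ± 0.302% and 8.35 ± 0.745% for K700E.

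**Figure D1:**
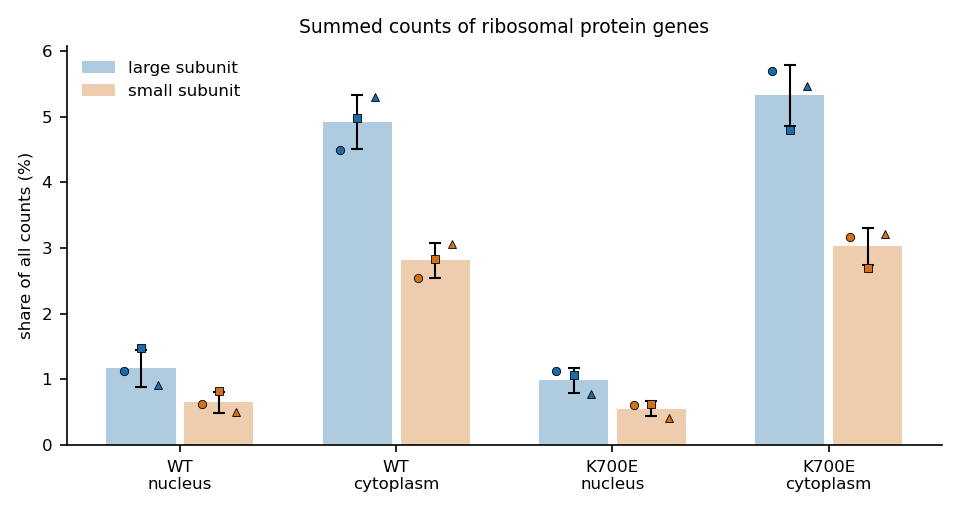
Summed counts of the 50 large and the 32 small subunit genes as a share of all counts (y axis, percent) in the 4 groups (x axis); bars are means, error bars the SD of 3 libraries, and circles, squares and triangles are replicates 1, 2 and 3. Both subunits take a larger share in cytoplasm, and the large subunit lies above the small one in each library.

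Large and small subunit genes kept nearly the same proportion in every library. Large subunit counts were 1.72 to 1.84 times the small subunit counts in nuclei and 1.71 to 1.80 times in cytoplasm. The ratio was 1.81 ± 0.0072 (SD, n = 3) in WT nucleus, 1.75 ± 0.0195 in WT cytoplasm, 1.80 ± 0.0704 in K700E nucleus and 1.76 ± 0.0473 in K700E cytoplasm. The WT fractions did not overlap in this ratio, whereas the K700E fractions did.

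Gene by gene, 73 of the 79 genes tested were higher in WT cytoplasm than in WT nucleus and 4 were lower (edgeR quasi-likelihood test, Benjamini-Hochberg adjusted p under 0.05 over 20394 genes). Over all genes tested 27.1% were higher and 40.0% lower, and over the protein-coding ones 35.4% and 29.5%. The median log2 fold change of the 79 genes was 2.64, with quartiles of 2.22 and 3.03, against -0.40 over all genes tested. In either direction 67.1% of all genes were called. With K700E, 72 were higher and 4 lower, where 28.1% of all genes were higher and 37.9% lower (65.9% in either direction), and the family's median was 2.84 against -0.29. The nuclear and cytoplasmic libraries did not overlap for 73 genes upward and 4 downward with WT, against 29.7% and 40.4% of all genes, and for 72 and 4 with K700E, against 30.2% and 40.4%. Scaling by library size alone moved the median of all genes by -0.52 with WT and by -0.41 with K700E, and the family's by a like amount, to 2.12 and 2.44. Scaling moves all genes about alike, so the distance of 3.04 between the family's median and that of all genes with WT could hardly change. It did change with the filter. The distance was 2.35 with WT and 2.49 with K700E when only genes reaching 1 CPM in all 12 libraries were kept. With no filter on low counts it was 3.60 and 3.53.

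Of the 82 genes, 3 did not pass the filter on low counts. Among them are RPL10L, a retrogene known from testis, which had 0 counts in all libraries, and RPS25, which had 20 counts in all 12 libraries together. RPL7A and RPS18 passed through their cytoplasmic libraries alone, so the filter had fixed their direction. Both are counted as higher with each construct, also by subunit and by small nucleolar RNA host, but give no evidence of direction. Neither is among the 70 tested genes outside the annotation classes described further on. Of those, 69 were higher with WT and 68 with K700E.

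**Figure D2:**
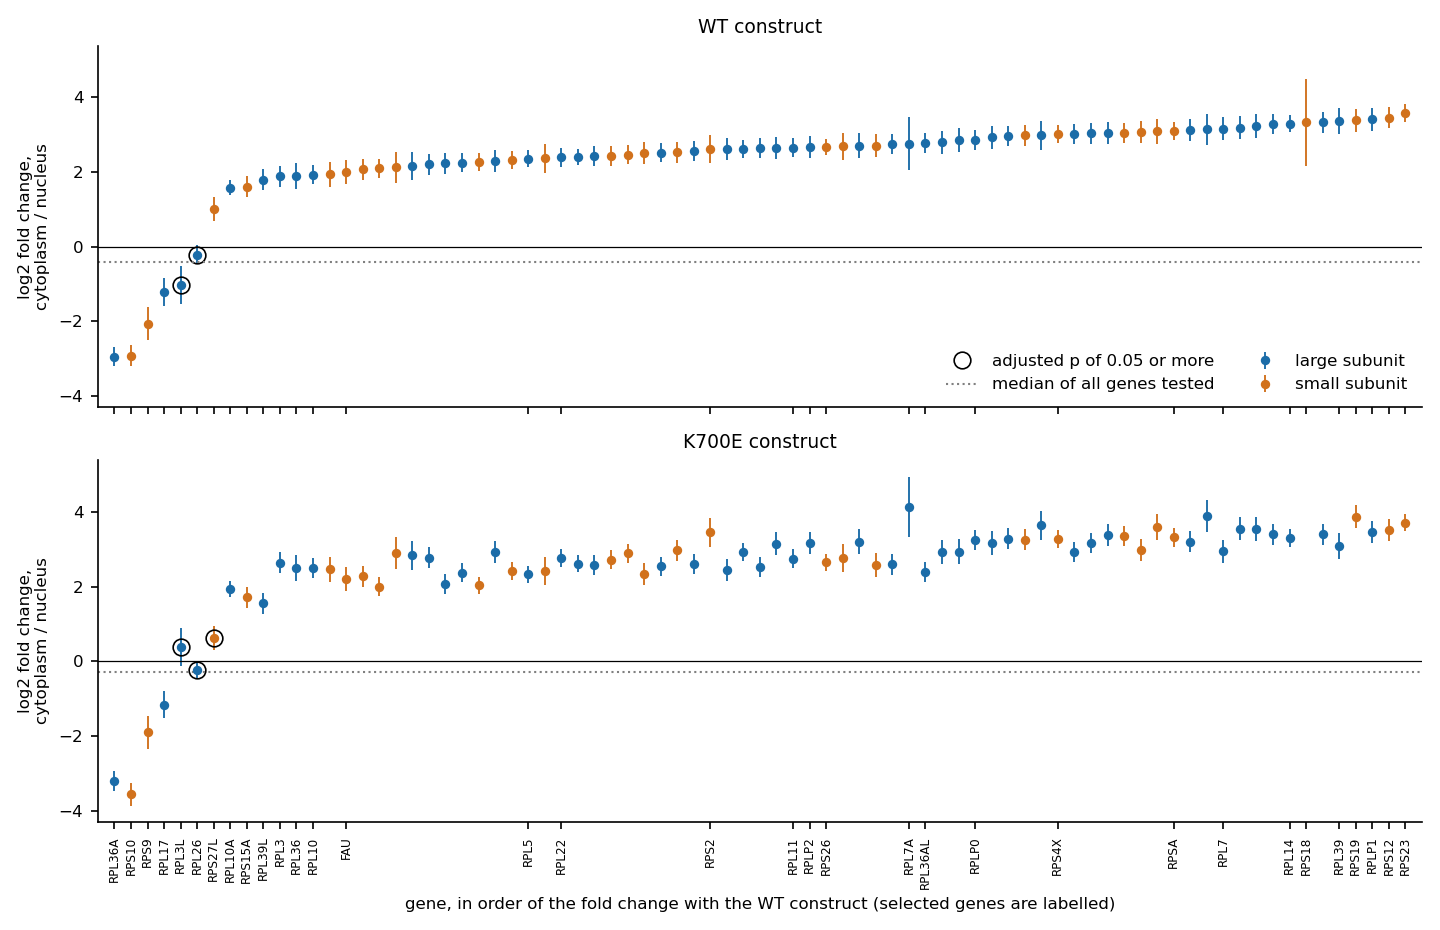
Log2 fold change of cytoplasm against nucleus (y axis) of each tested ribosomal protein gene with its standard error, with WT (top) and K700E (bottom), in the order of the WT values (x axis). RPS18 is left out of the lower panel because it had 0 counts in K700E nuclei; RPL36A, RPS10, RPS9 and RPL17 lie under zero with both constructs, RPL3L, RPL26 and RPS27L lie between them and the other genes, and the medians are 2.64 (WT) and 2.84 (K700E).

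The reference genes of each subunit show the size of the shift. RPS23, a protein of the decoding centre, stood at 57.6, 48.0 and 44.8 CPM in WT nuclei and at 524, 638 and 644 CPM in WT cytoplasm, a log2 change of 3.58 ± 0.23 (SE; edgeR adjusted p = 2.16e-08). With K700E it stood at 54.4, 58.6 and 35.6 CPM in nuclei and at 662, 645 and 650 CPM in cytoplasm (3.72 ± 0.24, adjusted p = 1.79e-08). Every cytoplasmic library was far above every nuclear one. On the opposite strand 54.1% of the RPS23 coding sequence lies in exons of ATG10, and whether the counting used strand is not stated.

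RPL14, a large subunit protein, had 165, 150.1 and 128 CPM in WT nuclei and 1357, 1491 and 1518 CPM in WT cytoplasm. Its log2 change was 3.30 ± 0.23 with WT and 3.31 ± 0.23 with K700E (edgeR adjusted p = 2.93e-08 and 2.85e-08). RPL36 had 66.9, 189.8 and 75.1 CPM in WT nuclei and 357, 397 and 481 CPM in WT cytoplasm. The fractions did not overlap, but replicate 2 of WT nucleus stood well above the other nuclei. Its change was 1.90 ± 0.34 with WT and 2.5 ± 0.35 with K700E (edgeR adjusted p = 0.000156 and 1.42e-05).

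The stalk proteins RPLP0, RPLP1 and RPLP2, which recruit translation factors to the large subunit, were all higher in cytoplasm. RPLP1 rose most among them, from 119, 159 and 97.8 CPM in WT nuclei to 1119, 1214 and 1670.3 CPM in cytoplasm (3.42 ± 0.30, edgeR adjusted p = 1.54e-07). RPLP0 changed by 2.86 ± 0.27 and RPLP2 by 2.67 ± 0.29 with WT, and by 3.25 ± 0.27 and 3.16 ± 0.29 with K700E. RPL5 and RPL11, which bind MDM2 when ribosome assembly fails, changed by 2.36 ± 0.22 and 2.66 ± 0.26 with WT and by 2.33 ± 0.22 and 2.76 ± 0.26 with K700E. RPS19 and RPS26, both mutated in Diamond-Blackfan anaemia, changed by 3.39 ± 0.31 and 2.67 ± 0.23 with WT and by 3.88 ± 0.32 and 2.66 ± 0.23 with K700E.

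Other proteins with particular histories followed the same direction. FAU, which is made as a fusion to a ubiquitin-like protein, had 57.3, 86.1 and 43.1 CPM in WT nuclei and 225, 220.3 and 302 CPM in WT cytoplasm (2.0 ± 0.31, edgeR adjusted p = 3.85e-05). RPSA, also known as a laminin receptor, changed by 3.10 ± 0.25 with WT and 3.32 ± 0.25 with K700E. RPS4X, the X-linked copy of the protein, changed by 3.01 ± 0.24 and 3.27 ± 0.25. Next to RPS23, the highest WT values were those of RPS12 (3.46 ± 0.29), RPLP1, RPS19 and RPL39 (3.36 ± 0.35).

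At the lower end of the genes that rose were RPL10A and RPS27L, whose listed starts lack the TOP tract. RPL10A had 386, 414 and 328 CPM in WT nuclei and 1066, 1159 and 1154 CPM in WT cytoplasm (1.58 ± 0.21, edgeR adjusted p = 6.89e-06). RPS27L, a p53-induced paralog of RPS27, had 46.1, 38.6 and 20.4 CPM in WT nuclei and 77.0, 80.6 and 54.6 CPM in WT cytoplasm. The change of RPS27L passed the test with WT (1.01 ± 0.33, adjusted p = 0.013) and not with K700E (0.63 ± 0.33, adjusted p = 0.105), and its interaction term was -0.39 ± 0.47 (adjusted p = 0.98). With K700E it was called in 5 alternatives, among them the replicate block (0.68, adjusted p = 0.0161) and no filter on low counts (0.69, adjusted p = 0.0333), so the calls do not separate the constructs. Its WT call was lost without replicate 3 of WT nucleus (0.79, adjusted p = 0.0533). It was also lost when only genes reaching 1 CPM in all 12 libraries were kept (0.70, adjusted p = 0.0753) and with library size alone (0.50, adjusted p = 0.165).

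Genes with and without a TOP start at the listed position had similar medians. A tract that lies a few bases from the listed start was not counted, as with the run of C and T in RPL10A. The sets therefore compare listed starts and do not tell which mRNAs lack a TOP tract. Setting aside the 11 genes of the annotation classes described further on, the median WT change was 2.66 over 38 genes with a TOP start and 2.58 over 17 without one. With K700E the medians were 2.93 and 2.61. The genes without one ranged from 1.01 (RPS27L) to 3.04 with WT, so the sets overlapped widely, and 15 further genes of this kind had no start in the table.

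The 4 genes that were lower in cytoplasm, with both constructs, were RPL36A (ENSG00000241343.10), RPS10 (ENSG00000124614.16), RPS9 (ENSG00000170889.14) and RPL17 (ENSG00000265681.8). RPL36A had 119, 87.3 and 102 CPM in WT nuclei and 14.6, 15.8 and 9.80 CPM in WT cytoplasm (-2.94 ± 0.27, edgeR adjusted p = 1.77e-07). With K700E it had 101, 106 and 86.3 CPM in nuclei and 14.5, 9.21 and 8.33 CPM in cytoplasm (-3.20 ± 0.27, adjusted p = 1.01e-07). The fractions were far apart with either construct, in the direction opposite to the family. RPS10, another Diamond-Blackfan gene, had 37.7, 37.3 and 30.7 CPM in WT nuclei and 5.43, 4.90 and 3.73 CPM in WT cytoplasm (-2.91 ± 0.29, adjusted p = 4.23e-07). In K700E libraries it had 41.9, 44.7 and 23.2 CPM in nuclei against 3.34, 3.17 and 2.78 CPM in cytoplasm (-3.56 ± 0.30, adjusted p = 1.02e-07).

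RPS9 had 17.2, 22.4 and 11.4 CPM in WT nuclei and 4.63, 1.91 and 5.62 CPM in WT cytoplasm (-2.06 ± 0.44, edgeR adjusted p = 0.000684), and changed by -1.89 ± 0.44 with K700E (adjusted p = 0.00141). RPL17 had 65.2, 51.0 and 44.4 CPM in WT nuclei and 16.8, 13.5 and 39.0 CPM in WT cytoplasm. Its replicate 3 of WT cytoplasm lay just under the lowest nuclear library, and the other cytoplasmic libraries were far lower. RPL17 changed by -1.21 ± 0.37 with WT and by -1.16 ± 0.37 with K700E (adjusted p = 0.00856 and 0.011). This call was lost without replicate 2 of WT cytoplasm (-0.92, adjusted p = 0.0503) and without replicate 1 or 2 of K700E cytoplasm (-1.0 and -0.96, adjusted p = 0.0521 and 0.0553).

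RPL26 and RPL3L did not pass the test in either construct. RPL26, which binds the p53 mRNA, had 60.1, 83.7 and 54.9 CPM in WT nuclei and 57.0, 64.0 and 51.0 CPM in WT cytoplasm, with overlapping ranges (-0.21 ± 0.25, edgeR adjusted p = 0.469). It differed by -0.23 ± 0.25 with K700E (adjusted p = 0.431). The sign of RPL26 turned without replicate 2 of WT nucleus (0.04) and without replicate 2 of K700E nucleus (0.01), and it was called lower with library size alone (-0.735, adjusted p = 0.0122, and -0.62, adjusted p = 0.0298). RPL3L, a paralog of RPL3 known from striated muscle, had between 1.04 and 4.03 CPM in the 12 libraries and differed by -1.02 ± 0.51 with WT (adjusted p = 0.087) and by 0.39 ± 0.50 with K700E (adjusted p = 0.509). With library size alone RPL3L was called lower with WT (-1.55, adjusted p = 0.0175) and its K700E value turned to -0.06.

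**Figure D3:**
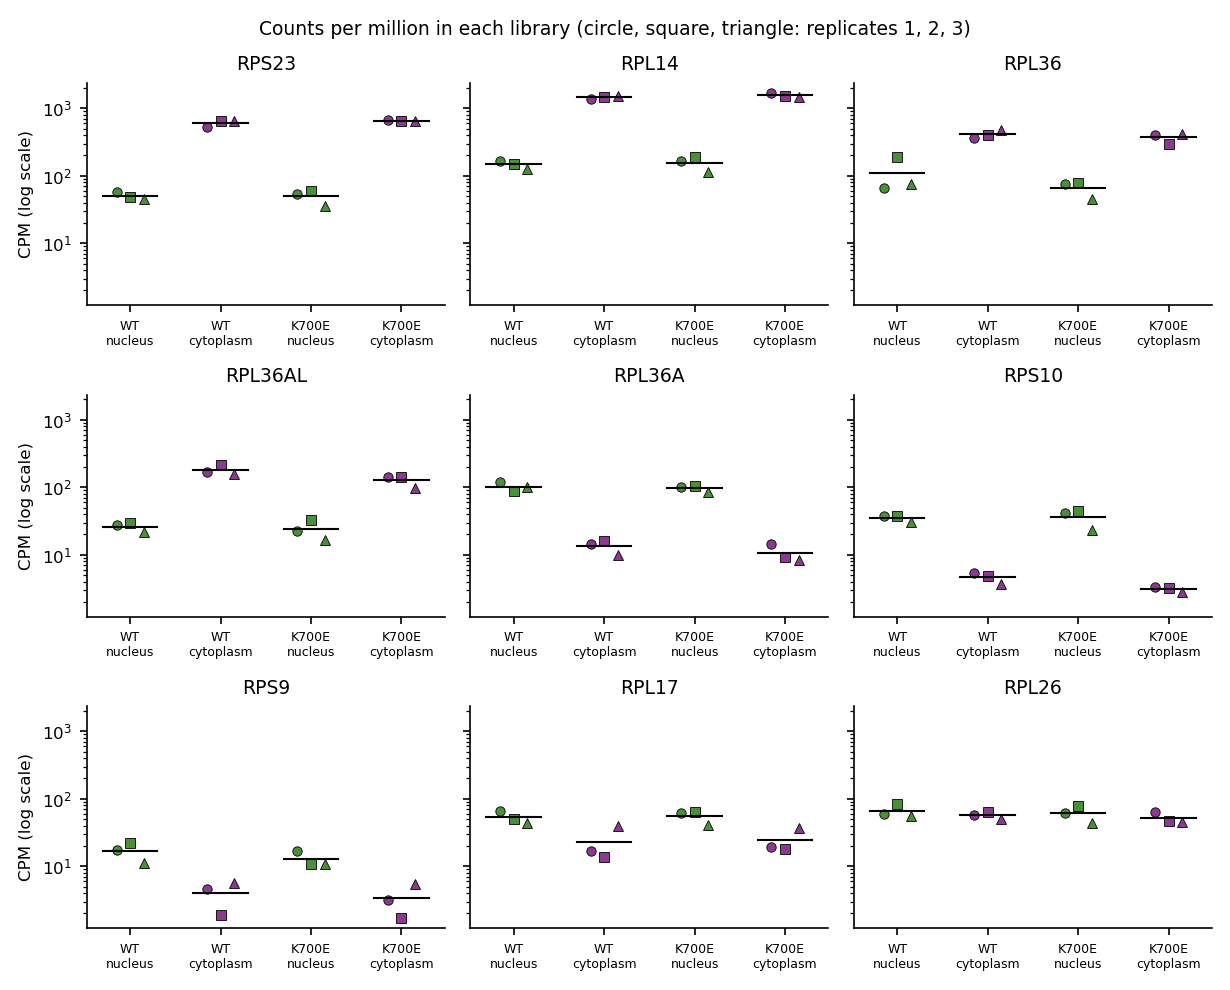
CPM on a log axis (y axis) in each library of the 4 groups (x axis), with the mean as a line, for the 3 reference genes, RPL36AL and 5 genes that did not follow the family. RPS23, RPL14, RPL36 and RPL36AL are higher in cytoplasm, RPL36A, RPS10, RPS9 and RPL17 are lower, and RPL26 overlaps.

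Of the 4 genes that were lower in cytoplasm, 3 share most of their coding sequence with another annotated gene. This was looked up after the values were seen, so it was not tested. In GENCODE release 29, over 50% of the coding sequence lies inside exons of another gene on the same strand for 7 genes. They include RPL17 (100.0%, with the readthrough gene RPL17-C18orf32), RPL36A (94.3%, with RPL36A-HNRNPH2), RPS10 (92.1%, with RPS10-NUDT3), RPL26 (71.0%, with AC135178.2), RPL22 (59.9%, with AL031847.2) and RPS15A (54.6%, with AC138811.2). How common such overlap is among all protein-coding genes was not counted. The overlapping genes themselves held few counts, at most 15 in any library. Reads in such a stretch belong to both genes, and how the authors' counting treated them is not given in the sources used here.

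A second property, also looked up after the values were seen, was whether the release names transcripts after the gene that lie outside the primary assembly, on patches or alternative haplotypes. This held for 5 of the 82 genes and for 5.39% of 18785 protein-coding genes. They include RPS9 (43 of 56 transcripts), RPS18 (37 of 45), RPL7A (9 of 18) and RPS25 (6 of 12). Per kilobase of coding sequence the level of these 5 in WT cytoplasm was 0.64 to 6.96 CPM, with a median of 1.99. The 6 other genes with overlapping coding sequence had 9.46 to 715 CPM per kilobase, with a median of 87.0, and the remaining 71 genes had a median of 2464.

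Of those 71 genes, 70 were tested. With WT 69 were higher and 0 lower, RPL3L being the exception, and with K700E 68 were higher and 0 lower, with RPL3L and RPS27L as exceptions. Their medians were 2.66 and 2.91. The 6 genes with overlapping coding sequence had medians of -0.71 and -0.69, with RPL22 (2.39 ± 0.24 with WT) and RPS15A (1.61 ± 0.29) higher, RPL36A, RPS10 and RPL17 lower and RPL26 not called. Which genome and annotation were used for the counts is not stated, and the part of these properties in the counts was not tested.

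**Figure D4:**
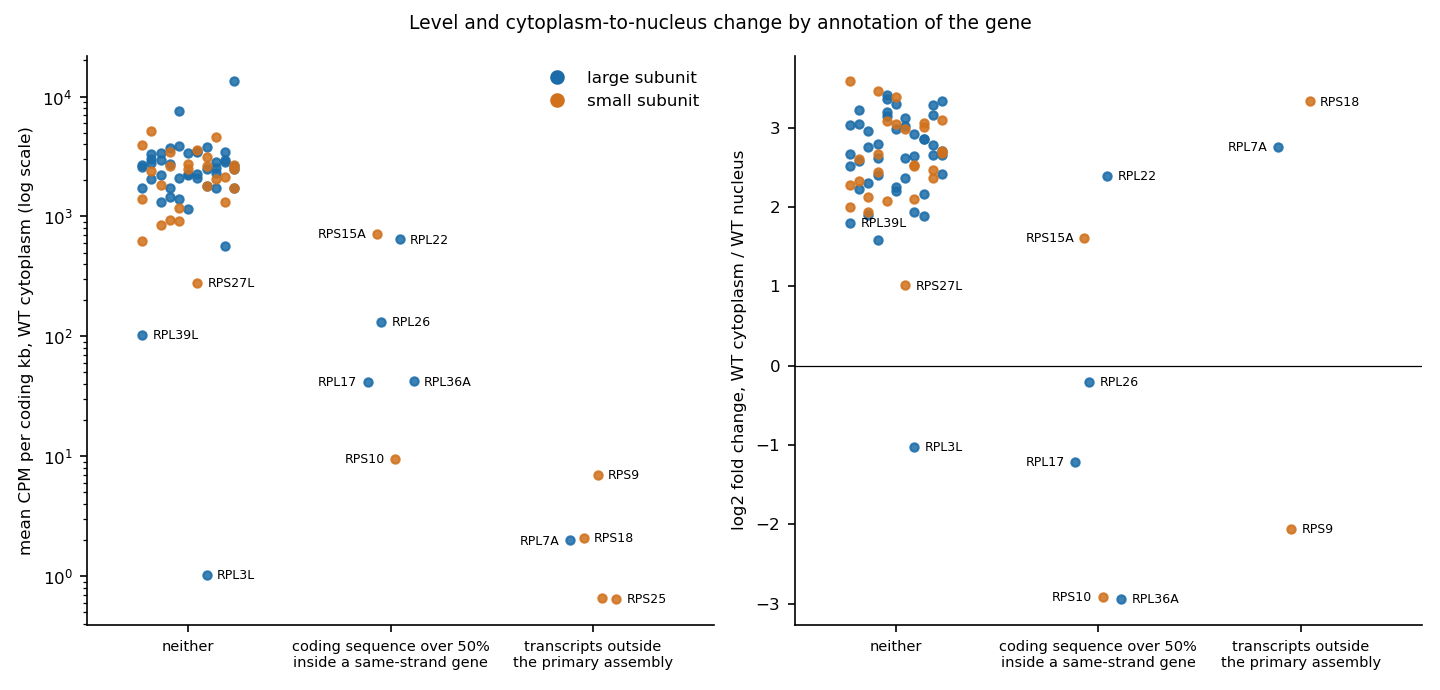
Left, mean CPM per kilobase of coding sequence in WT cytoplasm on a log axis; right, log2 fold change of WT cytoplasm against WT nucleus; each point is a ribosomal protein gene, by annotation class (x axis), with horizontal scatter for legibility. RPL10L, at 0 CPM, is not on the left and the 3 genes not tested are not on the right; the 71 genes of neither class hold the high levels except RPL3L, RPL39L and RPS27L.

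Counts on pseudogenes named after a family gene show how much sequence is shared elsewhere. The release names 1571 such pseudogenes after 77 of the 82 genes. For RPL7A they held 13781 counts in all libraries against 138 on the gene, for RPS18 4905 against 67, and for RPL36A 13700 against 8028. For RPL17 they held 6668 against 5826 and for RPS28 17244 against 15717. The mean level of the pseudogenes of each of these genes was higher in cytoplasm than in nuclei. Those of RPL36A stood at 33.0 ± 5.06 CPM (SD, n = 3) in WT nuclei and at 141 ± 35.7 CPM in WT cytoplasm, 92.0% of them on RPL36AP37. Those of RPL17 stood at 15.8 ± 4.36 and 71.4 ± 14.7 CPM, and those of RPS10 at 1.87 ± 0.895 and 9.16 ± 5.31 CPM.

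Summing each gene with its pseudogenes, a value without test that was added after the data were seen, moved the ratio of WT cytoplasm to WT nucleus for these genes. It went from 0.130 to 1.14 for RPL36A, from 0.432 to 1.36 for RPL17, from 0.866 to 1.01 for RPL26 and from 0.133 to 0.373 for RPS10. RPS9 had 1 pseudogene, which had no counts, and kept its ratio of 0.239. For RPL14, which has 5 pseudogenes, the ratio was 9.87 without and 9.93 with them. Reads of a gene and of its pseudogenes may have been exchanged in counting, so levels of RPL7A, RPS18, RPL36A, RPL17, RPS28 and RPS10 are uncertain.

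Few counts lay behind the values of RPL7A and RPS18, whose direction the filter had fixed. RPL7A had 62 counts in the 3 WT cytoplasmic and 8 in the 3 WT nuclear libraries, a ratio of 7.08 after scaling (95% exact interval 3.38 to 17.1, counting error only). RPS18 had 38 counts in WT cytoplasm and 3 in WT nuclei (11.6, interval 3.67 to 58.6). With K700E, RPL7A had 65 counts in cytoplasm and 3 in nuclei (19.98, interval 6.54 to 99.4). RPS18 then had 26 counts in cytoplasm and 0 in nuclei, which is at least 7.99-fold higher when the nuclei are set to 3 counts over the group. RPS25, which was not tested, had 9 counts in WT cytoplasm and 2 in WT nuclei. Placing RPS18 at its bound left the family's K700E median at 2.84.

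RPL36A and its paralog RPL36AL went opposite ways. Both coding sequences are 318 bases long in GENCODE release 29 without the stop codon, 32 positions differ, 89.9% are identical and the longest identical run is 60 bases. RPL36AL had 27.6, 29.4 and 21.6 CPM in WT nuclei and 171, 212 and 159 CPM in WT cytoplasm, with no overlap (2.78 ± 0.27, edgeR adjusted p = 3.32e-07). With K700E it had 22.8, 33.2 and 16.4 CPM in nuclei and 143, 140.0 and 98.9 CPM in cytoplasm (2.40 ± 0.27, adjusted p = 1.27e-06). RPL36AL lies on chromosome 14 (49618519 to 49620685, GRCh38) and RPL36A on chromosome X (101390824 to 101396154).

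RPL39 and RPL39L, known for its expression in testis, moved the same way at very different levels. Their coding sequences in GENCODE release 29, shown because so few bases tell their reads apart, have 153 bases each, differ at 8 positions (capitals), are 94.8% identical and share a run of 44 bases.
RPL39: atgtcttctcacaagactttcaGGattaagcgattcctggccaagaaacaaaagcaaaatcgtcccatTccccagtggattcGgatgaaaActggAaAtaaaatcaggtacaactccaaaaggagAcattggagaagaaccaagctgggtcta
RPL39L: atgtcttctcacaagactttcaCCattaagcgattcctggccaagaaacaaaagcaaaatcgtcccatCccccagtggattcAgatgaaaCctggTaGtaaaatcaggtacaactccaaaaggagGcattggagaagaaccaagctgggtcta
RPL39 had 128, 111 and 98.0 CPM in WT nuclei and 1141, 1500.0 and 831 CPM in WT cytoplasm. RPL39L had 4.62, 4.21 and 4.82 CPM in WT nuclei and 12.9, 18.4 and 16.2 CPM in WT cytoplasm (1.80 ± 0.28, edgeR adjusted p = 3.84e-05), and changed by 1.55 ± 0.28 with K700E. Per kilobase of coding sequence RPL39 stood at 7564 ± 2189 CPM (SD, n = 3) in WT cytoplasm and RPL39L at 103 CPM.

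The remaining paralog pairs were less alike in sequence. RPL10 and RPL10L were 89.3% identical over the coding sequence, RPL26 and RPL26L1 84.1%, RPS27 and RPS27L 77.8%, RPL3 and RPL3L 75.2%, RPL22 and RPL22L1 65.4% and RPL7 and RPL7L1 53.6%. The parents all rose except RPL26. RPL3 changed by 1.89 ± 0.27 with WT and by 2.64 ± 0.28 with K700E, RPL10 by 1.94 ± 0.27 and 2.49 ± 0.27, RPS27 by 2.69 ± 0.37 and 2.78 ± 0.38, and RPL7 by 3.16 ± 0.31 and 2.95 ± 0.30.

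Levels per kilobase differed widely within the family. RPL41, whose coding sequence of 75 bases is the shortest, stood highest at 13373 ± 155 CPM per kilobase (SD, n = 3) in WT cytoplasm, a value that its uncounted untranslated length inflates. By the mean RPL39 came next, then RPS2 at 5114 ± 1328 and RPS4X at 4634 ± 332. Counts on the pseudogenes of RPS2 are not in its level. The ranges of RPL39 and RPS2 overlap, as do those of RPS2 and RPS4X. In WT nuclei the order was RPL41 (2493 ± 735), RPS2 (836 ± 480) and RPS6 (817 ± 64.8), and the last pair again overlapped. Apart from the genes of the annotation classes, the lowest were RPL10L at 0, RPL3L at 1.03 ± 0.172 and RPL39L.

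Large and small subunit genes shifted alike. Of 49 large subunit genes tested 45 were higher and 2 lower with each construct, with medians of 2.66 (WT) and 2.93 (K700E). Of 30 small subunit genes 28 were higher with WT, 27 with K700E and 2 lower with each, with medians of 2.52 and 2.75. The large subunit median exceeded the small by 0.13 with WT and 0.17 with K700E. These differences ranged from 0.02 to 0.28 and from 0.02 to 0.23 when single libraries were left out, and were smallest without replicate 2 of WT nucleus and without replicate 2 of K700E nucleus.

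No ribosomal protein gene was called between constructs in the nucleus. In the comparison of K700E with WT nuclei 0 of 79 genes passed (edgeR, smallest adjusted p = 0.659), as did 0.0% of all genes tested, and DESeq2 called 0 as well. At an unadjusted p under 0.05 there were 2 of the 79, against 1389 of 20394. The median log2 difference was -0.12 against -0.05 over all genes, and 57 were negative and 22 positive. The 5 smallest p-values belonged to RPL36 (-0.74 ± 0.34), RPS15 (-0.88 ± 0.40), RPL8 (-0.72 ± 0.36), RPL10 (-0.53 ± 0.26) and RPL3 (-0.51 ± 0.27).

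These 5 differences shrank without replicate 2 of WT nucleus, that of RPL10 the least. RPS15 had 114, 323 and 108 CPM in WT nuclei and 118, 114 and 65.1 CPM in K700E nuclei, and RPL8 had 222, 561 and 213 against 242, 223 and 140.1 CPM. In each of the 5 genes that library was the highest of the 6 nuclear ones. Without it the differences were -0.09 for RPL36, -0.16 for RPS15, -0.11 for RPL8, -0.31 for RPL10 and -0.18 for RPL3, and the median of the 79 genes was 0.02. The groups did not overlap for 1 gene upward, RPL39L, and 1 downward, RPL7A, whose counts were 4, 2 and 2 against 0, 2 and 1 and are parted only by the scaling, where 3.91% and 4.87% of all genes did not overlap.

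In the cytoplasm K700E and WT libraries were also without a call in the family. Of 79 genes 0 passed (edgeR, smallest adjusted p = 1), 0 had an unadjusted p under 0.05 against 929 of 20394, and DESeq2 called 0. Over all genes 0.0049% were called. The median was 0.05, with 56 positive and 23 negative, against 0.00 over all genes. The 5 smallest p-values belonged to RPS10 (-0.59 ± 0.29), RPL36AL (-0.51 ± 0.25), RPL3L (0.96 ± 0.51), RPS26 (-0.35 ± 0.21) and RPL22 (0.31 ± 0.23).

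In the cytoplasm the groups did not overlap for 5 genes upward (RPL22, RPL3L, RPL41, RPS23 and RPS3A) and 2 downward (RPL36AL and RPS10), where 6.6% and 6.98% of all genes did not overlap. RPL22 had 232, 246 and 262 CPM in WT and 336, 271 and 309 CPM in K700E cytoplasm. RPS10 had 3.73 to 5.43 CPM in WT and 2.78 to 3.34 CPM in K700E cytoplasm, 3 libraries each. The upward count is close to the share of all genes, and the downward count is below it.

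The interaction, which asks whether the shift between fractions differs between constructs, also gave 0 calls among 79 genes (edgeR, smallest adjusted p = 0.98), 0 at an unadjusted p under 0.05 against 672 of 20394, and 0 by DESeq2. Over all genes 0.0% were called. The family's median was 0.17, with 59 positive and 20 negative, against 0.05. The 5 smallest p-values belonged to RPL3 (0.75 ± 0.38), RPL3L (1.41 ± 0.72), RPS2 (0.84 ± 0.50), RPS10 (-0.65 ± 0.39) and RPL13 (0.62 ± 0.40). Without replicate 2 of WT nucleus the median was 0.02 and RPS2 stood at 0.26 and RPL3 at 0.42. The 4 comparisons and the interaction share libraries and are not independent of each other.

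Within a group the family moved together. In most libraries the deviations went with GC content, and in cytoplasm and part of the nuclear libraries also with coding length. Over the 73 genes above a log2 CPM of 3 in all libraries, the deviation from the group mean in replicate 2 of WT nucleus rose by 0.47 (log2) per 10% of GC in the coding sequence (Pearson r = 0.806 across genes). It rose by 0.33 in replicate 3 of K700E cytoplasm (r = 0.588) and by 0.22 in replicate 3 of WT cytoplasm (r = 0.447), and fell by 0.32 in replicate 1 of WT nucleus (r = -0.721). Over 13851 protein-coding genes the same 4 libraries had slopes of 0.28, 0.24, 0.14 and -0.15. With the log2 coding length, r was 0.508 in replicate 3 of WT cytoplasm and 0.488 in replicate 3 of K700E cytoplasm. In replicates 1 and 2 of WT nucleus it was -0.044 and 0.047, and in replicates 2 and 3 of K700E nucleus -0.358 and 0.366. With GC, r was only 0.142 in replicate 3 of K700E nucleus. Deviations from a group mean offset each other, so opposite slopes within a group are not separate results. The genes of a library share its preparation and depth, so the correlations are descriptions.

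Replicate 3 of both nuclear groups was low in the family as a whole. The median deviation of the 73 genes was -0.35 in replicate 3 of WT nucleus and -0.51 in replicate 3 of K700E nucleus, and 0.22 and 0.30 in replicate 2 of each. Without the 3 libraries with the steepest rise, an alternative added after the data were seen, 72 genes were higher and 4 lower with either construct, the nuclear median between constructs was 0.01 and the interaction median 0.06. The part of GC content and of coding length in the other values was not tested.

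**Figure D5:**
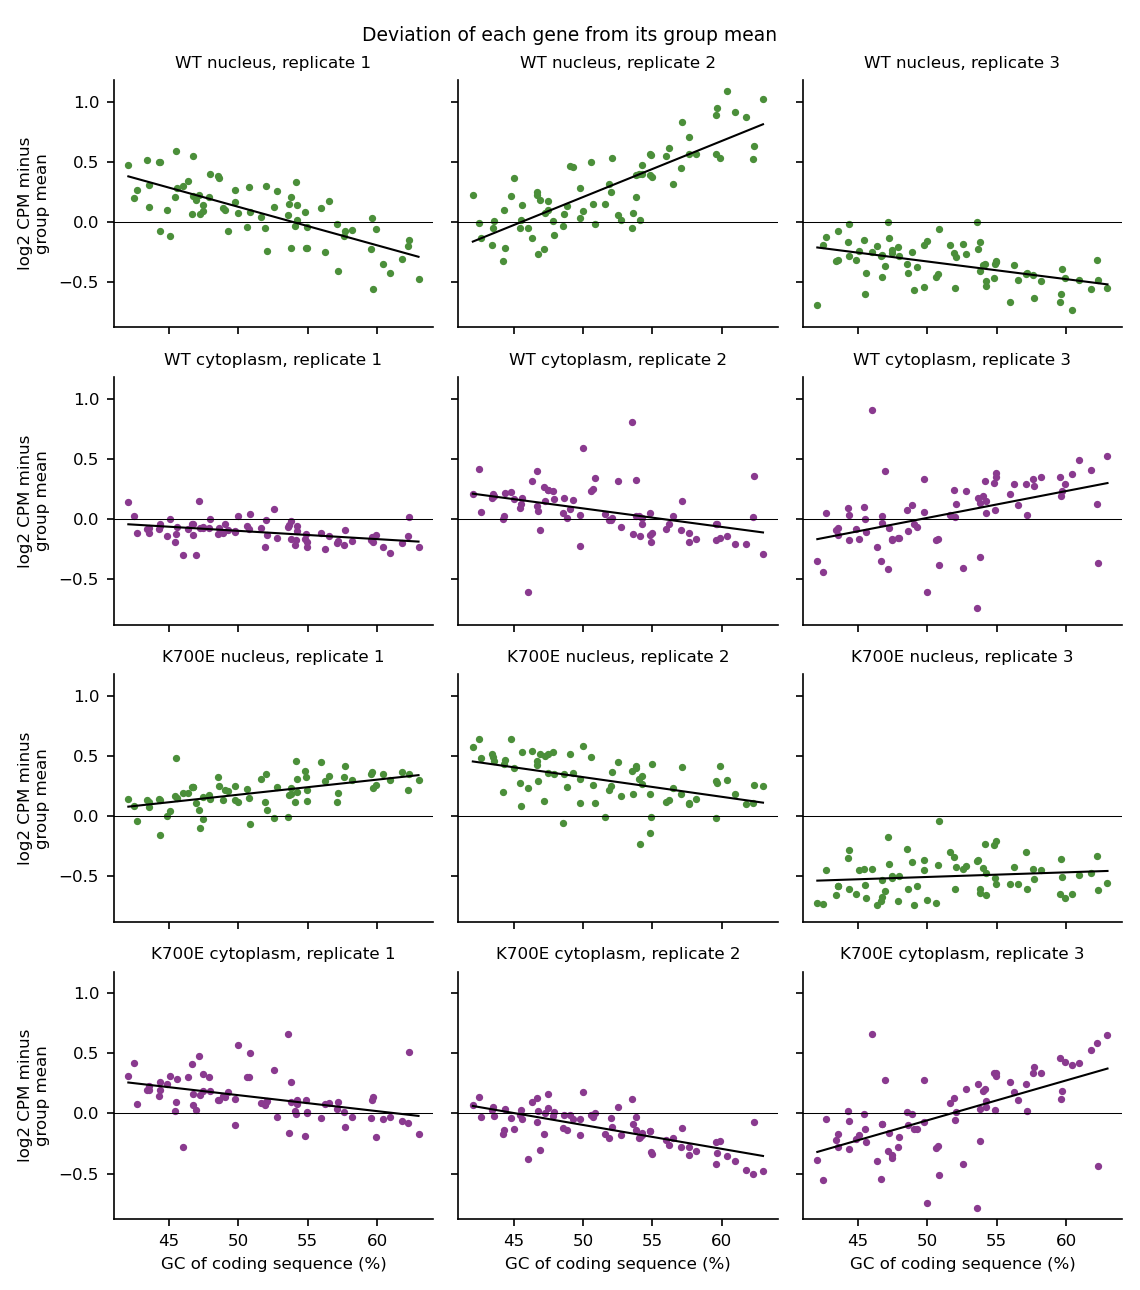
Deviation of log2 CPM from the group mean (y axis) against the GC content of the coding sequence in percent (x axis) for 73 ribosomal protein genes, 1 panel per library, with a least-squares line. Replicate 2 of WT nucleus and replicate 3 of K700E cytoplasm slope upward most, and replicate 3 of K700E nucleus lies under zero throughout.

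Genes that make, guard or control ribosomal proteins were counted in the same way, beside 27.1% of all genes higher and 40.0% lower with WT and 28.1% and 37.9% with K700E. Of 75 tested genes of ribosome biogenesis 46 were higher and 7 lower in WT cytoplasm (edgeR), 45 and 8 with K700E, with medians of 0.70 and 0.75. They ranged with WT from DDX47 (-4.82 ± 0.52), an RNA helicase, to NHP2 (4.0 ± 0.30), a protein of box H/ACA particles. DDX47 stood at 15.1 ± 7.35 CPM (SD, n = 3) in WT nuclei and at 0.536 ± 0.229 CPM in WT cytoplasm, so the size of its change rests on a low cytoplasmic level. Of 15 chaperones of ribosomal proteins 14 were higher and 0 lower with each construct, with medians of 1.42 and 1.49, from HEATR3 (0.47 ± 0.27, not called), which binds RPL5, to GRWD1 (2.71 ± 0.34), the chaperone of RPL3.

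Of 19 regulators of TOP mRNAs 6 were higher and 5 lower with WT and 5 and 4 with K700E, with medians of 0.12 and 0.19, from ZNF692 (-3.40 ± 0.29) to EIF4EBP2 (3.51 ± 0.33), a repressor of cap-dependent translation. Other mRNAs and RNAs with TOP tracts, such as those of elongation factors, were higher for 20 and lower for 4 of 25 with each construct, with medians of 1.76 and 1.74. EEF1A1, the elongation factor, rose by 3.75 ± 0.32 with WT and SNHG5, a host of small nucleolar RNAs, fell by 2.23 ± 0.30. Outside the rule, 8 listed genes encode ribosomal proteins or proteins like them, among them RPS27A, RACK1, RPL7L1, RPL22L1, RPL26L1, RSL24D1 and RSL1D1. All 8 were higher with each construct, with medians of 2.6 and 2.84. Between constructs 0 genes of these 5 lists were called by edgeR in the nucleus, in the cytoplasm or in the interaction. The largest list, ribosome biogenesis, had 11, 8 and 1 of 75 genes at an unadjusted p under 0.05 in these 3 comparisons, against 1389, 929 and 672 of 20394 genes. Its median between constructs in the cytoplasm was -0.24, with 67 of the 75 values negative, against 0.00 over all genes with 9713 of 20394 negative.

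Of the family genes tested, 28 host small nucleolar RNAs, and their difference from the others was not tested. Of these 28 27 were higher and 1 lower in WT cytoplasm, with a median of 2.66, and of the 51 others 46 were higher and 3 lower, with a median of 2.58. With K700E the counts were 27 and 1 for hosts and 45 and 3 for the others, with medians of 2.98 and 2.76. Between constructs in the cytoplasm 27 of 28 hosts were positive, with a median of 0.08. Of the others 29 of 51 were positive, with a median of 0.01, and 0 were called in either set. Over all genes tested 10122 of 20394 were positive, with a median of 0.00. The hosts share the same libraries, and the whole family's median ranged from -0.02 to 0.10 when single libraries were left out. Outside the family, the genes whose log2 CPM over 12 libraries was most like the family mean included SNRPD2 (Pearson r = 0.996), a core protein of spliceosomal particles, and SRP14 (r = 0.996), of the signal recognition particle.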

How the data were processed

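The authors deposited raw counts per gene, 1 table per library, made from NEBNext Ultra libraries of Trizol extracts, per the labels' protocols. HISAT2 and DESeq appear in the submitters' processing notes, with no version. Which program counted the reads, on which genome and annotation and with which strand setting is not stated. Each table held 67049 gene IDs, of which 60507 matched a symbol and 58396 GENCODE release 29 (GRCh38). The 6353 IDs with neither held 0.157% of counts. Coordinates, coding lengths and overlaps are of that release, and start sites are of RefSeq.

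All 12 libraries, 3 in each of 4 groups, entered 1 fit in edgeR 4.0.16 (R 4.3.3). Tests were quasi-likelihood F tests after TMM scaling. Genes under the default filterByExpr limits (count of 10, total of 15) were dropped, and 20394 were tested. An adjusted p under 0.05 (Benjamini-Hochberg) was a call, and the biological coefficient of variation was 0.306. The fit was tested on simulated counts. Intervals and the floor of 3 counts cover counting error only. Alternatives were DESeq2 1.42.0, other scalings and filters, only the 6 libraries compared, a replicate block and each library left out. Members, lists and tests were chosen with earlier results of these data known. Named genes were the 3 reference genes, the 5 highest and lowest changes, every gene not called higher, paralog pairs, stalk proteins, selected disease genes, the extremes of each list and the 5 smallest p-values where fewer than 5 were called. Some items that this rule selects are not reported here.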

Additional observations from a re-analysis of the deposited data

How the results depend on the processing

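With each library left out in turn, 71 to 73 genes were higher and 3 to 4 lower with WT, and 72 to 73 and 3 to 4 with K700E. The medians then ranged from 2.52 to 2.77 and from 2.66 to 2.995 (log2). Medians between constructs ranged from -0.32 to 0.09 in the nucleus, from -0.02 to 0.10 in the cytoplasm and from -0.06 to 0.33 for the interaction, so their sign depended on single libraries. Large minus small subunit medians ranged from 0.018 to 0.285 with WT and from 0.017 to 0.231 with K700E. Summed shares ranged from 1.58% to 2.02%, 7.42% to 8.09%, 1.44% to 1.71% and 8.09% to 8.77% in WT nucleus, WT cytoplasm, K700E nucleus and K700E cytoplasm. Library size alone moved the WT median to 2.12 and turned RPL3L with K700E to -0.057. RPL26 turned with WT to 0.15 without the 3 libraries with the steepest rise with GC and to 0.04 without replicate 2 of WT nucleus, and with K700E to 0.014 without replicate 2 of K700E nucleus, and was not called in any of these 3 settings. Left out 1 library at a time, RPL26 ranged from -0.278 to 0.040 with WT and from -0.392 to 0.014 with K700E. Among named genes 4 values turned, 6 lost and 8 gained a call, and 1509 kept both. RPS27L with K700E gained a call in 5 settings.

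The labels do not say what a replicate number marks. Correlations of same-numbered deviations were -0.17 to 0.09 between fractions and 0.03 to 0.43 between constructs within a fraction, where all 6 were positive and 2 were under 0.1, so the libraries were not treated as paired and a shared origin between constructs was not settled. With the replicate block 73 genes were higher and 4 lower with each construct, with medians of 2.64 and 2.88, 0 were called between constructs, and RPS27L with K700E passed (0.68, adjusted p = 0.0161 in edgeR). The cause of these changes was not tested. Nuclear libraries, with fewer counts, limit RPL7A and RPS18 most. RPS25 and RPL3L had few counts in both fractions, and RPL3L with WT had 90 in nuclei and 48 in cytoplasm.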
